A study of Saccharomyces cerevisiae with 6 samples.

Results

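The genes described here encode the proteasome of budding yeast (Saccharomyces cerevisiae) and its transcriptional activator. They were chosen by name: 14 subunits of the 20S core particle, 18 subunits of the 19S regulatory particle and RPN4, 33 of the 6205 reading frames on the array. All 33 had a spot, and 32 of them had a value in every condition. The exception was PRE9, which had no value at 3 h and so entered no fit.

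The proteasome degrades proteins that carry a chain of ubiquitin. Its core is a barrel of alpha and beta rings with the protease sites inside, and its regulatory particle binds the ubiquitin chain, removes it and unfolds the protein with a ring of ATPases. Rpn4 is a short-lived transcription factor that binds an element shared by the promoters of most proteasome genes, and the proteasome itself destroys it, so that a shortfall of proteasomes lets Rpn4 build up and raises the whole set together.

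Transcript levels were measured on 2-colour arrays, each condition as a ratio of treated over control cells of the same strain grown in YEPD, a rich glucose medium. Wild-type (WT) cells of strain UCC1899 were freed of their mitochondrial genome (mtDNA) by ethidium bromide, a dye that intercalates in DNA, at 30 µg/ml over 6 h, and were compared at 3, 11, 19 and 27 h with WT cells that kept it. Cells of strain UCC3980, homozygous for ATP1-111, a variant allele of ATP1 (ATP synthase, alpha subunit), were treated alike and compared at 27 h with ATP1-111 cells with intact mtDNA. Cells of strain UCC3970, in which expression of NAR1, needed to place iron-sulfur clusters on cytosolic and nuclear proteins, depends on estradiol, were compared 27 h after transfer from 50 to 2 nM estradiol with cells kept at 50 nM. The authors averaged 3 biological replicates, each hybridised with both dye assignments, into 1 ratio per gene and condition (6 arrays, or 5 for ATP1-111).

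The deposited averages carry no replicate spread, and the ratios below are therefore given without an error. Standard errors (SE), 95% confidence intervals and adjusted p-values come from 1 limma fit over all genes. That fit draws a line in time through the 4 WT columns and takes their distance from it as the noise, and the ATP1-111 and NAR1 columns were assumed to vary alike. As a guide to technical noise, 13 genes had 2 spots each, and their single-spot SD in log2 units was 0.151 to 0.239 depending on the column. The repression column had NAR1 at 0.031, and its ratio lay between 0.979 and 2.25 in the other columns.

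The proteasome genes stayed close to the control in nearly every condition. At 27 h after mtDNA loss in WT cells the median ratio of the subunits was 0.999, against 0.958 for all genes, and the subunits ran from 0.67 for RPN1 to 1.32 for RPN5. The 33 members gave 4 values in all that lay at least 1.5-fold off the control, each of them below it. These were RPN7 at 3 h (ratio 0.636), PUP1 at 11 h (0.641), and RPT1 both in ATP1-111 (0.616) and after NAR1 repression (0.247). Among all genes that size was passed by 4.98% at 3 h, 8.31% at 11 h, 17.0% at 19 h, 21.5% at 27 h, 3.37% in ATP1-111 and 19.7% after NAR1 repression. At 19 and 27 h in WT cells 0 of 33 members passed it. Within 1.3-fold of the control were 29 of 32 subunits at 11 h, 27 at 19 h, 28 at 27 h and 29 after NAR1 repression, against 78.3%, 67.8%, 60.9% and 63.3% of all genes. The members nearest to the threshold without reaching it were RPN1 at 27 h (0.67), RPN13 at 11 h (0.673) and PUP1 at 19 h (0.677).

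**Figure D1:**
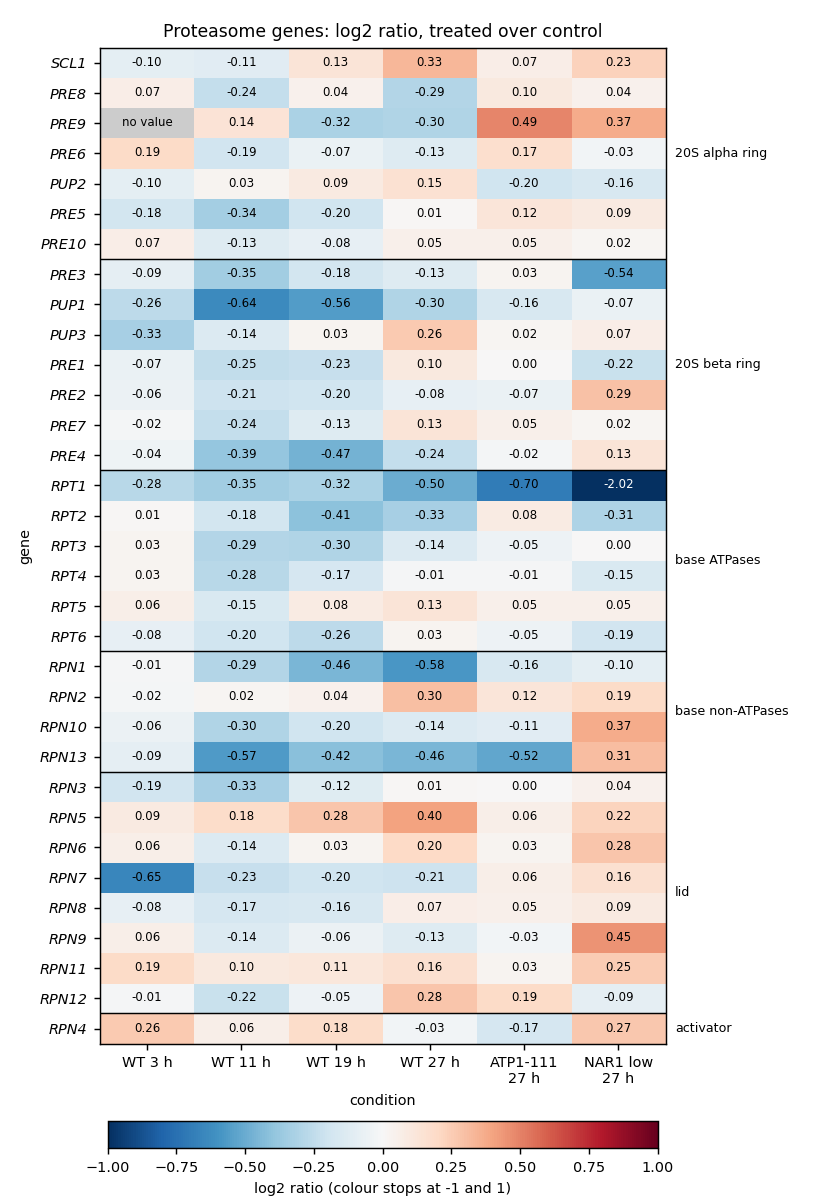
Log2 ratio of treated over control for each of the 33 genes (rows, grouped by place in the complex) in each of the 6 conditions (columns), with the value printed in each cell and colour that stops at -1 and 1. Most cells are pale, the WT 11 h column is mostly blue, and RPT1 after NAR1 repression is the darkest cell at -2.02.

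At 11 h the subunits lay a little below the control together. Their median log2 ratio was -0.22, and their quartiles were at -0.29 and -0.14, against a median of -0.01 and quartiles of -0.20 and 0.17 for all genes. Of 33 members 27 had a ratio below 1 at 11 h, where 51.7% of all genes did. The count was 20 of 32 at 3 h (50.7% of all genes) and 23 of 33 at 19 h (54.3%). It was 17 of 33 at 27 h (55.6%), 14 of 33 in ATP1-111 (53.3%) and 12 of 33 after NAR1 repression (46.6%). The median of the subunits was -0.04 at 3 h, -0.16 at 19 h and 0.00 at 27 h, so that it was lowest at 11 h and at the control level at 27 h. Since 11 h is 1 averaged column, this shift was not tested.

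**Figure D2:**
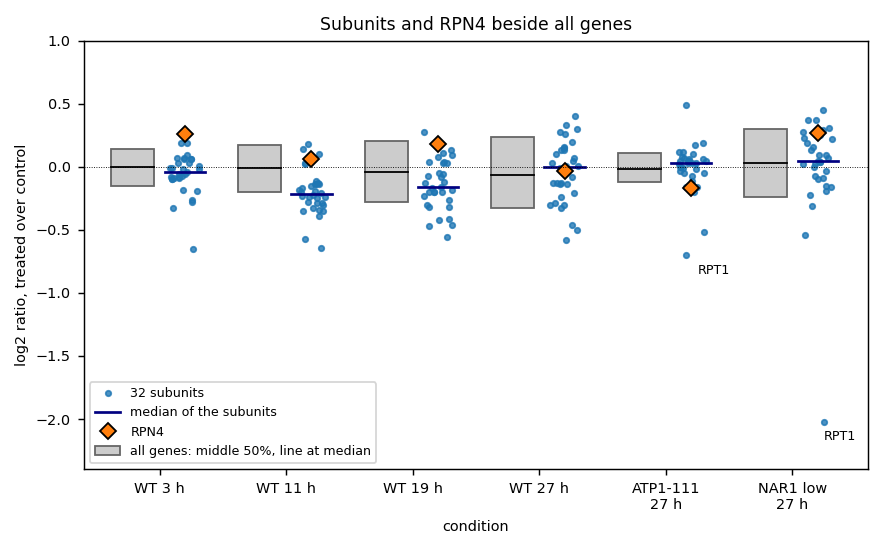
Log2 ratio of the 32 subunits (blue points, blue line at their median) and RPN4 (orange diamond) in each condition beside the middle 50% of all genes (grey box, black line at the median). The median of the subunits lies within the box in every condition except at 11 h, where, at -0.22, it is at the lower edge. RPT1 lies apart in ATP1-111 and after NAR1 repression. Other single subunits outside the box include RPN7 at 3 h (-0.65), and RPN13 (-0.52) and PRE9 (0.49) in ATP1-111.

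The alpha ring, which gates the entry to the core, had no member 1.5-fold off the control. Its genes are SCL1, PRE8, PRE9, PRE6, PUP2, PRE5 and PRE10, and their log2 ratios in WT cells ran from -0.34 (PRE5 at 11 h) to 0.33 (SCL1 at 27 h). PRE9, the alpha subunit that cells can do without, had ratios of 1.10, 0.799 and 0.812 at 11, 19 and 27 h, 1.40 in ATP1-111 and 1.29 after NAR1 repression. It was thus the highest of the subunits in ATP1-111 and below the control at the matching WT time. Of the 6 alpha genes tested, 0 passed limma's test of the WT slope, the WT mean level, the ATP1-111 difference or the NAR1 level. Among all genes 7.25%, 43.8%, 7.71% and 24.5% passed these tests, in that order.

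The beta ring carries the protease sites, on the products of PRE3 (caspase-like), PUP1 (trypsin-like) and PRE2 (chymotrypsin-like). PUP1 was the lowest of the ring throughout the middle of the time course. Its ratio was 0.836 at 3 h, 0.641 at 11 h, 0.677 at 19 h and 0.811 at 27 h, with 0.897 in ATP1-111 and 0.95 after NAR1 repression. All 6 values were below 1, and the WT values were furthest down at 11 and 19 h. PRE2 stayed between 0.864 and 0.962 in WT cells and stood at 1.22 after NAR1 repression. PRE3 ran from 0.784 to 0.938 in WT cells and stood at 0.689 after NAR1 repression. PRE4, a structural beta subunit, had ratios of 0.97, 0.764, 0.724 and 0.848 along the WT time course. The remaining structural subunits, PUP3, PRE1 and PRE7, lay between 0.795 and 1.198 in WT cells.

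In the regulatory particle, the base holds the ATPases Rpt1 to Rpt6 and the scaffolds Rpn1 and Rpn2. RPT2, RPT3, RPT4, RPT5 and RPT6 lay between 0.753 and 1.09 in WT cells. RPN2 had ratios of 0.984, 1.01, 1.03 and 1.23 along the WT time course, 1.09 in ATP1-111 and 1.14 after NAR1 repression. RPN1, whose product docks ubiquitin receptors and the deubiquitinase Ubp6, had ratios of 0.992, 0.817, 0.729 and 0.67 at 3, 11, 19 and 27 h. Each WT value of RPN1 lay below the one before it, and ATP1-111 (0.893) and NAR1 repression (0.935) were nearer to the control. Its fitted change over 24 h was -0.56 on the log2 scale (SE 0.15, limma adjusted p = 0.0803), which did not pass. RPN13, a ubiquitin receptor, was low from 11 h on, with ratios of 0.941, 0.673, 0.75 and 0.726 in WT cells and 0.697 in ATP1-111. After NAR1 repression RPN13 stood above the control, at 1.24. RPN10, which also encodes a ubiquitin receptor, was on the same sides as RPN13, with WT ratios of 0.812 to 0.959, 0.927 in ATP1-111 and 1.29 after NAR1 repression.

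The lid removes the ubiquitin chain through Rpn11, a metalloprotease. RPN11 had ratios of 1.14, 1.07, 1.08 and 1.12 in WT cells, 1.02 in ATP1-111 and 1.19 after NAR1 repression, all above 1 and in a narrow range. RPN5 was the highest subunit at 11, 19 and 27 h, with WT ratios of 1.07, 1.13, 1.21 and 1.32, against 1.05 in ATP1-111 and 1.16 after NAR1 repression. RPN5 and RPN11 were thus on the same side of the control in all 6 columns. RPN7 had the lowest subunit value at 3 h (0.636) and then 0.853, 0.871 and 0.864 in WT cells, with 1.05 and 1.12 in ATP1-111 and after NAR1 repression. RPN3, RPN6, RPN8, RPN9 and RPN12 lay between 0.793 and 1.21 in WT cells.

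Over the WT time course, 0 of 32 tested members passed limma's test of the slope in either direction, where 7.25% of all genes did. At an unadjusted p under 0.05 the slope of 2 members was upward and that of 1 downward, and by ordinary least squares, without moderation of the spread, these counts were 3 and 1. Among all 6151 genes 857 slopes were upward and 998 downward at that threshold, and 516 and 624 by ordinary least squares. The largest fitted changes over 24 h were those of PUP3 (0.58, SE 0.14, adjusted p = 0.0691) and RPN1. The 95% intervals of the fitted change lay inside a 2-fold change for 31 of the 31 subunits tested, with a median half-width of 0.45 on the log2 scale. These intervals are not adjusted for the number of genes tested. A change smaller than that half-width would often not be detectable in this design. Larger ones can also fail after adjustment, as those of PUP3 and RPN1 did. The median fitted change was 0.02 for the subunits and -0.05 for all genes, and without the 3 h column the subunit median was 0.33.

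The mean level over the 4 WT times asks whether a gene's average stood off its control, and a gene can pass it with single times at the control level. Of 32 members 7 were lower and 1 was higher by limma, and 43.8% of all genes passed this test in one direction or the other, so the members passed it in a smaller share than genes at large. By direction, 1473 of all 6151 genes were lower and 1220 higher. For lower calls the members were thus near the share of all genes, and for higher calls they were below it. The 7 lower members were PUP1 (mean log2 ratio -0.44, SE 0.09, adjusted p = 0.0139), RPN13 (-0.38), RPT1 (-0.37), RPN1 (-0.33), RPN7 (-0.32), PRE4 (-0.28) and RPT2 (-0.23). The higher member was RPN5 (0.24, SE 0.05, adjusted p = 0.0184). The calls of RPT1 and RPN1 held in 7 of 8 alternatives, PUP1 in 6, RPN13 in 5 and RPN7 in 4. Those of PRE4 and RPN5 held in 3 and that of RPT2 in 2, and the RPN5 call was lost with each WT column left out. The 3 h ratios of RPT2 (1.009) and RPN1 (0.992) were at the control level, and RPN7 was furthest down at 3 h (log2 -0.65, against -0.23 to -0.20 later). The genes that passed are spread over the beta ring, the base and the lid, and none is in the alpha ring. By ordinary least squares 0 members passed, with 2 higher and 3 lower at an unadjusted p under 0.05, and without the 19 h column 2 members were lower and 0 higher. Of all 6151 genes, ordinary least squares called 4 higher and 5 lower (1022 and 1297 unadjusted). Without the 19 h column, 718 of them were higher and 735 lower. Noise in a control RNA shared by the WT columns, if one was shared, would count here as a level.

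**Figure D3:**
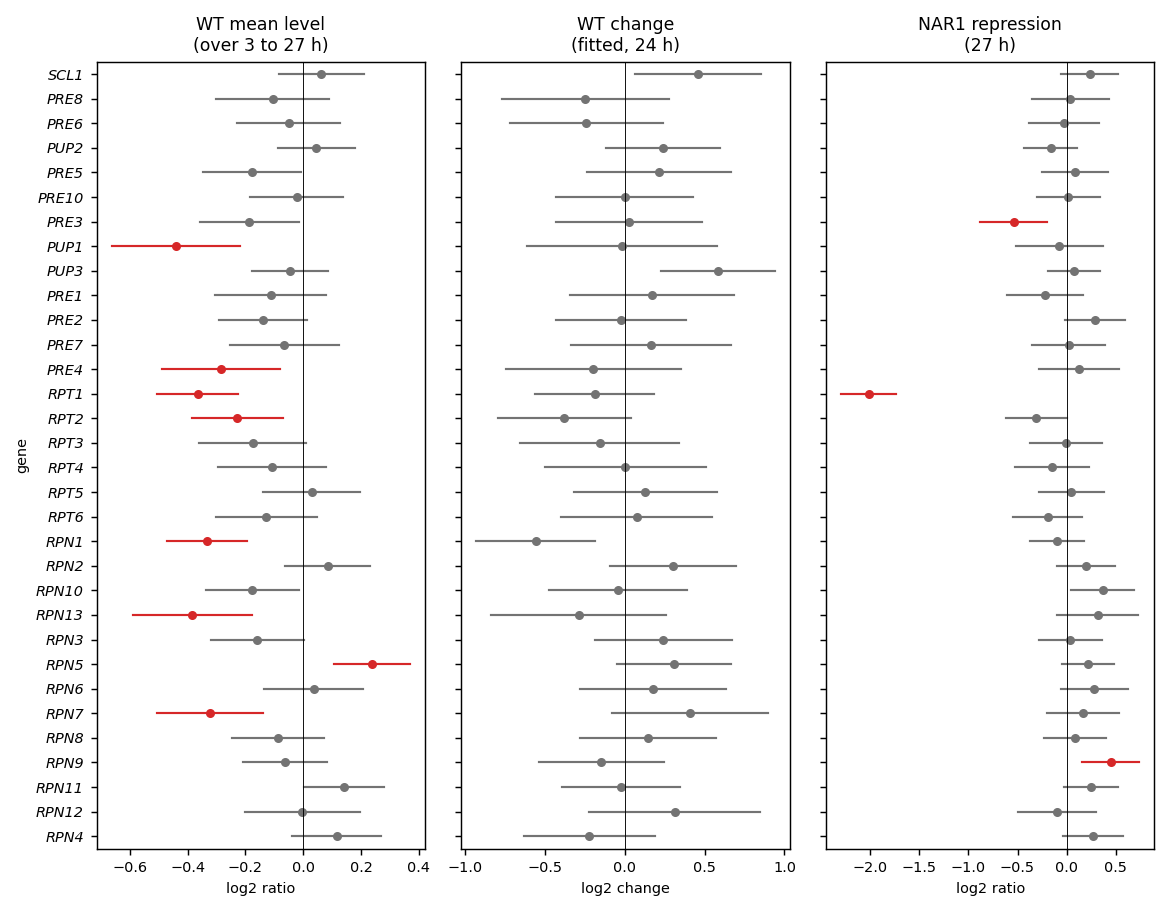
Fitted log2 values with 95% confidence intervals for the 31 subunits with complete data and RPN4, for the WT mean level, the fitted WT change over 24 h and the level after NAR1 repression; red marks a limma adjusted p under 0.05. The intervals of the WT change are wider than those of the mean level and 0 are red, and RPT1 lies at -2.02 in the last panel, far from the other genes.

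RPN4 itself differed little from the control. Its ratio was 1.195 at 3 h, 1.04 at 11 h, 1.13 at 19 h and 0.979 at 27 h in WT cells, 0.891 in ATP1-111 and 1.204 after NAR1 repression. The values of 3 h and of NAR1 repression were the highest and that of ATP1-111 the lowest, and no value was 1.5-fold off the control. The fitted WT change over 24 h was -0.22 on the log2 scale (95% interval -0.63 to 0.19, limma adjusted p = 0.402). The mean WT level was 0.12 (interval -0.04 to 0.27, adjusted p = 0.176) and the level after NAR1 repression 0.27 (interval -0.04 to 0.57, adjusted p = 0.162). The intervals leave room for modest changes in either direction and lie inside a 2-fold change. RPN4 was above the control at 11 h and at 19 h, when the median of the subunits was below it.

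Genes for proteins that act on RPN4 or on its product were on the list of pathway genes. Pdr1, Pdr3, Yap1 and Hsf1 are transcription factors known to activate RPN4, and Ubr2 with its partner Mub1 marks the Rpn4 protein for destruction. PDR3 had ratios of 1.02, 2.25, 2.51 and 2.76 in WT cells, 1.45 in ATP1-111 and 1.98 after NAR1 repression. It was at the control level at 3 h and more than 2-fold above it at the 3 later WT times. Its mean WT level passed limma's test (log2 1.00, SE 0.13, adjusted p = 0.00423), and its linear slope did not (fitted change 1.34, adjusted p = 0.0767). The PDR3 slope passed in 2 of 9 alternatives, 1 of them the slope against log2 hours (adjusted p = 0.0262). Across the settings its adjusted p reached 0.418, and its fitted change ran from 0.45, without the 3 h column, to 1.94. PDR1 had ratios of 1.11, 1.201, 1.32 and 1.67, and YAP1 1.16, 1.10, 1.28 and 1.54, along the WT time course. The mean WT level of PDR1 (0.39), YAP1 (0.33) and HSF1 (0.21) passed as well, which makes 4 of the 6 genes of this list in a test that 43.8% of all genes passed. The HSF1 call held in 2 of 8 alternatives and the YAP1 call in 4, while those of PDR1 and PDR3 held in 7 each. UBR2 lay between 0.897 and 1.11 and MUB1 between 0.961 and 1.15 in WT cells, and neither passed. At 11, 19 and 27 h, where PDR3 was above 2, the median ratio of the subunits was 0.86, 0.893 and 0.999.

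**Figure D4:**
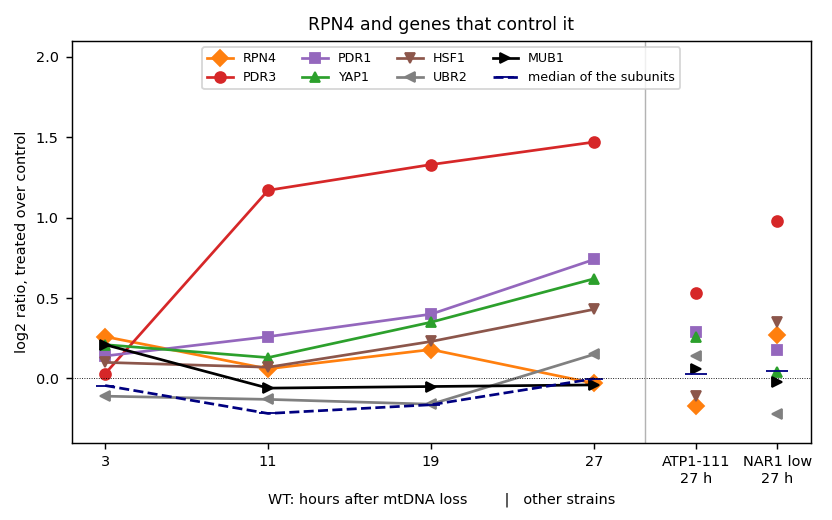
Log2 ratio of RPN4, of 6 genes for proteins that control it and of the subunit median (dashed) at the 4 WT times and, right of the grey line, in ATP1-111 and after NAR1 repression. PDR3 is at 1.17 to 1.47 from 11 h on, while RPN4 stays between -0.03 and 0.26 in WT cells.

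After NAR1 repression 1 subunit stood far from the rest. RPT1 (YKL145W), which encodes an ATPase of the base, had a ratio of 0.247 there (log2 -2.02, SE 0.11, limma adjusted p = 0.00171). It was 39th from the lowest of 6192 genes in that column. The next lowest subunits were PRE3 at 0.689 and RPT2 at 0.807, and the other ATPase genes RPT3, RPT4, RPT5 and RPT6 lay between 0.876 and 1.04. RPT1 was also below the control in WT cells, at 0.823, 0.783, 0.799 and 0.706, and in ATP1-111 at 0.616, where it was the lowest subunit and 53rd from the lowest of 6176 genes. All 6 of its values were thus below 1, and that of NAR1 repression was below the others by the widest gap. The difference between NAR1 repression and the fitted WT level at 27 h, added after the values were seen, was -1.56 for RPT1 (SE 0.14, adjusted p = 0.00494), in a contrast that 26.0% of all genes passed. By ordinary least squares this call was lost (adjusted p = 0.115), and 0 of all 6151 genes passed there. The same contrast called 2 members higher, RPN13 (0.84, SE 0.21, adjusted p = 0.0409) and RPN9 (0.59, SE 0.15, adjusted p = 0.0426), calls that held in 3 and 2 of 8 alternatives.

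The genes on either side of RPT1 did not share its level. AVT3 (YKL146W), a vacuolar amino acid transporter gene, had a ratio of 1.01 after NAR1 repression, and RPC25 (YKL144C), which encodes an RNA polymerase III subunit, had 1.35. In the same column the galactose genes GAL1, GAL2, GAL7 and GAL10 had ratios of 0.017, 0.019, 0.014 and 0.027. These 6 genes were looked up after the values were seen. The galactose genes, which encode enzymes and a transporter of galactose use, were thus further down than RPT1, and their part in the RPT1 value was not tested. The fall in estradiol and the loss of NAR1 came together in this column and cannot be told apart for RPT1 or the galactose genes. The array gave 1 spot for RPT1, so no second spot bears on its value.

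Over the whole set, the NAR1 column had 1 member higher and 2 lower of 32 by limma, where 24.5% of all genes passed. The lower ones were RPT1 and PRE3 (log2 -0.54, SE 0.14, adjusted p = 0.0425), and the higher one was RPN9, a lid subunit, at a ratio of 1.37 (log2 0.45, SE 0.12, adjusted p = 0.0448). The calls of PRE3 and RPN9 were lost in 4 and 6 of 8 alternatives, and that of RPT1 in 1 (ordinary least squares, adjusted p = 0.108). By ordinary least squares 0 members passed, and 3 were higher and 2 lower at an unadjusted p under 0.05. Of all 6151 genes 0 passed by ordinary least squares, and 997 were higher and 749 lower at the unadjusted threshold. The lid had a median log2 ratio of 0.19 and the non-ATPase subunits of the base 0.25, against -0.17 for the ATPases and 0.03 for all genes. Of the lid genes 7 of 8 were above 1 and of the ATPase genes 5 of 6 were below it, where 46.6% of all genes were below it. Of these 3 lists only RPN9 and RPT1 passed, and a difference between the lists was not tested.

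In ATP1-111 cells the log2 ratios of the subunits had quartiles of -0.05 and 0.07, a narrower range than the -0.22 and 0.13 of WT cells at 27 h, as did all genes (-0.12 and 0.11 against -0.33 and 0.24). Of 32 subunits 29 were within 1.3-fold of the control in ATP1-111 and 28 in WT at 27 h, while the share of all genes within that range was 91.8% in ATP1-111 and 60.9% in WT. The median ratio of the subunits was 1.02 in ATP1-111 and 0.999 in WT. The difference of ATP1-111 from the fitted WT level passed for 0 of 32 members in limma, where 7.71% of all genes passed. At an unadjusted p under 0.05, 2 members were higher and 1 lower (1 and 3 by ordinary least squares). Of all 6151 genes 942 were higher and 888 lower at that threshold (632 and 549 by ordinary least squares). The largest differences were those of RPT2 (0.50) and RPN1 (0.45, adjusted p = 0.112), the lowest was that of PUP2 (-0.37), and the intervals of all 31 subunits tested lay inside a 2-fold difference. For RPN4 the difference was -0.17 (interval -0.57 to 0.23, adjusted p = 0.51).

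Of 50 other genes of the ubiquitin and proteasome pathway, 48 could be tested. The WT slope passed for 1 of them, where 7.25% of all genes passed. This was UBC5, a stress-induced ubiquitin-conjugating enzyme, which had ratios of 0.881, 0.971, 1.35 and 1.71 in WT cells (fitted change 1.00, SE 0.16, limma adjusted p = 0.0328). With scaled columns, by ordinary least squares or without the 19 h column, 0 of all 6151 genes passed the slope test. The UBC5 call held in 2 of 9 alternatives and was lost with each WT column left out. Its close relative UBC4 lay between 0.761 and 0.94, and whether their spots could tell the pair apart was not tested. UBC8 reached 1.85 at 19 h and UBC11 1.51 at 27 h, and UBI4, the polyubiquitin gene, had ratios of 0.55 at 11 h and 1.48 at 19 h. RSP5, a ubiquitin ligase gene, had ratios of 0.953, 0.903, 0.784 and 0.63 along the WT time course (fitted change -0.60, adjusted p = 0.0791). For the WT mean level 8 of the 48 were higher and 10 lower, beside the 43.8% of all genes. These counts were 0 and 0 by ordinary least squares and 2 and 2 without the 19 h column. For all 6151 genes they were 4 and 5 by ordinary least squares and 718 and 735 without the 19 h column. The lower ones of the 48 included the assembly chaperone genes ADD66, POC4 and NAS6, and ECM29, whose product tethers core and regulatory particle (mean log2 ratio -0.48, adjusted p = 0.00807). RAD23, a shuttle receptor gene (-0.26, adjusted p = 0.0226), UFD2, which encodes a chain-elongating ligase (-0.25, adjusted p = 0.0193), and UBC7, a conjugating enzyme gene of the endoplasmic reticulum (-0.23, adjusted p = 0.0374), were lower too. The ECM29 call held in 7 of 8 alternatives, those of RAD23 and UFD2 in 3 each and that of UBC7 in 1. BLM10, UBC4 and RSP5 complete the 10, and the 8 higher ones were PDR3, PDR1, YAP1, HSF1, UBC1, UBC5, UBC8 and UBC11. Among the genes furthest from the control in their lists at 27 h that passed no test, TMA17 (0.752), SHP1 (0.816), FUB1 (0.911) and HRD1 (0.925) were below 1, and DDI1 (1.27), DOA4 (1.17), UBP6 (1.09) and UFD4 (1.05) above it.

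After NAR1 repression 7 of the 48 were higher and 4 lower, in a test that 24.5% of all genes passed. Scaled columns and ordinary least squares each gave 0 and 0, and leaving out the 19 h column gave 2 and 1. Of all 6151 genes, scaled columns called 61 higher and 117 lower, and ordinary least squares called 0 and 0. Without the 19 h column those counts were 432 and 411. The higher ones included UMP1, a chaperone that matures the core particle, at a ratio of 1.68 (log2 0.75, SE 0.11, limma adjusted p = 0.0122). Others were POC4 (1.41), UBC1 (1.57), UBC5 (1.49), UBC11 (1.499), SAN1, a ligase of nuclear quality control (1.61), and PDR3. The lower ones were BLM10, which encodes an alternative cap of the core, at 0.532 (log2 -0.91, adjusted p = 0.00933), CDC48 (0.677), a segregase that pulls ubiquitinated proteins from complexes, DSK2 (0.645), a shuttle receptor, and RPN14 (0.74), an assembly chaperone of the base. The assembly chaperones thus went both ways in that column, with a median log2 ratio of 0.01. For ATP1-111 against WT, 0 of the 48 passed in limma, where 7.71% of all genes did. At an unadjusted p under 0.05, 7 of the 48 were higher and 6 lower, beside 942 and 888 of all 6151 genes.

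**Figure D5:**
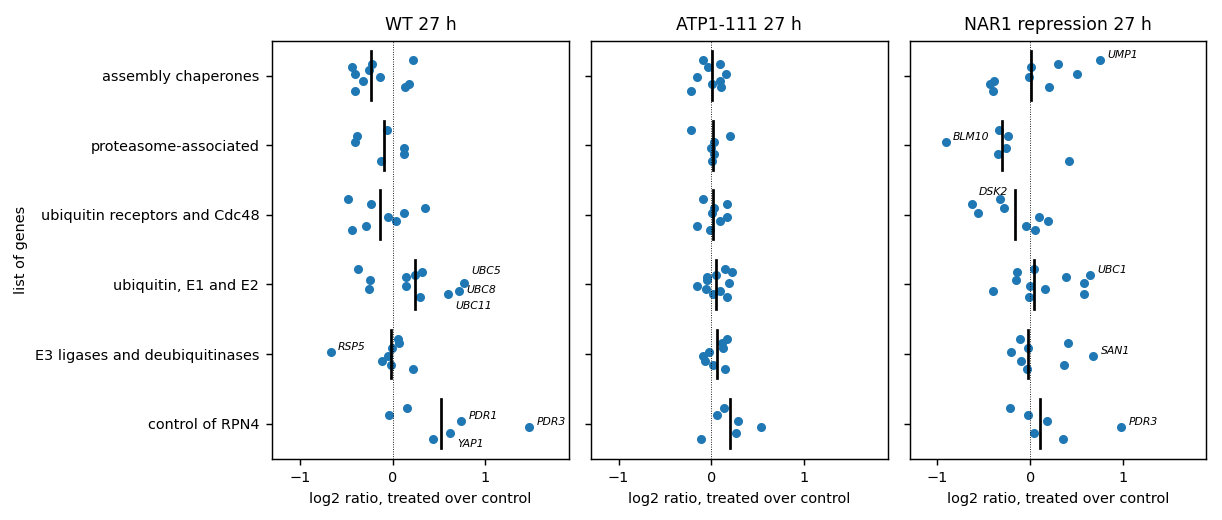
Log2 ratio of 50 other genes of the pathway, 1 point a gene, by list (rows) in WT cells at 27 h, in ATP1-111 and after NAR1 repression; the black bar is the list's median, and genes at least 1.5-fold off the control are named. All points are within 1.5-fold in ATP1-111, and PDR3 is the highest in both other panels.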

How the data were processed

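The deposited table had 6259 rows and 6 columns, 1 a condition. Per the labels, each value is a ratio of treated over control cells that the authors averaged over 6 arrays (5 for ATP1-111). These deposited ratios were linear, since none was negative and column medians were near 1. The scanner, background correction and normalization are not given in the sources used here, and spot brightness was not analysed here. Control rows (28) were dropped, values were converted to log2, and 26 spots that represent 13 genes were averaged by gene. Symbols came from the reference gene table (assembly R64, 5705 of 6205 reading frames matched), without coordinates, since the array's build was not named.

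Tests used limma 3.58.1 (R 4.3.3) on the 6151 genes with a value in every column. The terms were a WT level, its change per hour, and separate levels for ATP1-111 and NAR1 (2 residual and 3.35 prior degrees of freedom). P-values were two-sided and adjusted by Benjamini-Hochberg across those genes, with calls made under 0.05. The number of arrays limits the precision. Alternatives were column centring, column scaling, log2 hours, ordinary least squares, leaving out each WT column, a 2-fold size and, for the slope, values in the 4 WT columns alone. All 33 members are named, and of the other lists those past a test or among the 4 furthest from 1 at 27 h. Members and lists were chosen with earlier results of these data known. A planned promoter motif search was not run, because no promoter sequences were at hand.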

Additional observations from a re-analysis of the deposited data

How the results depend on the processing

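The results rest on 1 averaged ratio per gene and condition and on 2 residual degrees of freedom. Small changes are therefore not detectable, and neither dim spots nor the spread between the authors' replicates could be examined. The WT slope and the ATP1-111 difference passed for 0 members under each alternative run. Of all 6151 genes, 0 passed the slope test with scaled columns, by ordinary least squares or without the 19 h column. For the ATP1-111 difference 0 of 6151 passed by ordinary least squares or without the 19 h column. Those runs called no gene and so say nothing particular to the members. The median slope of the subunits ran from -0.13 without the 27 h column to 0.33 without the 3 h column. For the WT mean level, members higher and lower were 1 and 7 in the report, 1 and 4 with columns scaled to a common spread, and 0 and 0 by ordinary least squares. Leaving out 1 WT column at a time gave 0 higher and 2 to 9 lower. For all 6151 genes the counts higher and lower were 1220 and 1473 in the report and 1113 and 1000 with scaled columns. With 1 WT column left out, 718 to 988 of all genes were higher and 735 to 1264 lower. By ordinary least squares, 4 of all 6151 genes were higher and 5 lower for the WT mean level, and 0 passed for NAR1 repression. For NAR1 repression, members higher and lower were 0 and 2 with centred columns, 0 and 1 with scaled columns, 0 and 0 by ordinary least squares, and 0 to 1 and 1 to 2 without 1 WT column. Of all 6151 genes, 720 were higher and 745 lower there with centred columns, and 61 and 117 with scaled columns. Without 1 WT column, 432 to 1052 of all genes were higher and 411 to 930 lower. Without the 11 or the 19 h column RPT1 was the lower member left. At a 2-fold size, 0 members passed at 3 h, 11 h and in ATP1-111, and RPT1 passed after NAR1 repression. Scaled columns gave 2 members past 1.5-fold at 11 h (PUP1, RPN13) and 3 in ATP1-111 (PRE9, RPT1, RPN13). Scaling widened both columns for all genes, from a median absolute deviation of 0.187 at 11 h and 0.114 in ATP1-111 to 0.213. The shares of all genes past 2-fold, or past 1.5-fold after scaling, were not counted, so these counts say nothing particular to the members. The NAR1 level of RPT1 ran from -2.05 to -1.61 over 8 alternatives (adjusted p from 0.000704 to 0.108), and its WT slope from -0.22 to 0.09. RPN4 passed in 0 alternatives of any contrast, its NAR1 level running from 0.18 to 0.27. Counting members below each column's own median, an alternative chosen after seeing the data, gave 15 at 27 h and 14 after NAR1 repression. The cause of these differences was not tested. No paired analysis was possible because each condition was 1 averaged column.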
